A study of Rattus norvegicus with 12 samples.

Results

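Gene expression in the hypothalamus of young adult male rats was compared between maternal exposure to TCDD, the dioxin 2,3,7,8-tetrachlorodibenzo-p-dioxin, and vehicle. The comparison rests on the 6 hypothalamus arrays of a series of 12, chosen by the tissue given in the labels, and the other 6 arrays hold pituitary RNA. Each array was an Illumina RatRef-12 BeadChip that received biotin-labelled cRNA, for which 250 ng of total RNA had been amplified. All tissue came from Wistar males on postnatal day 70, the pups of dams that had been dosed by mouth on gestation day 15. The vehicle group (3 arrays, called vehicle 1 to 3) came from dams given vehicle, and the TCDD group (3 arrays, called TCDD 1 to 3) from dams given TCDD in corn oil. The sources disagree on the dose, 1 µg per kg in the series text and 1 mg per kg in the sample protocols, so no value is tied to a dose. The labels do not say which pups shared a dam or litter, whether tissue was pooled, or where the hypothalamus was cut, so a p-value measures the spread between these arrays only. The stated purpose was to look for genes whose lasting change could be linked to defects in sexual behaviour.

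The hypothalamus holds the neurons that set reproduction, feeding, growth, stress and water balance. Gonadotropin-releasing hormone (GnRH), made by scattered neurons of the preoptic area and basal forebrain, drives the pituitary gonadotropins and through them the testis, while oxytocin and vasopressin neurons of the paraventricular and supraoptic nuclei act on social and sexual behaviour. TCDD binds the aryl hydrocarbon receptor (AhR), which switches on genes of xenobiotic metabolism such as Cyp1a1 and Cyp1b1. Because nuclei of the hypothalamus lie close to the striatum, cortex, thalamus, meninges and pituitary stalk, small differences in a cut change which cells a sample holds.

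Levels below are log2 normalized intensities, and a difference is TCDD minus vehicle on that scale. Between 10852 and 11438 of 22523 probes were detected per array, and pairs of arrays correlated at 0.978 to 0.992 over the tested probes. Defining hypothalamic peptide genes were present: Pmch, Hcrt, Avp, Oxt, Agrp, Pomc, Trh, Sst, Crh and Ghrh were detected on all 6 arrays, as were the glial genes Gfap and Mbp and the neuronal gene Snap25. Among pituitary markers, Fshb, Cga, Pou1f1 and Gnrhr were detected on none, Tshb on all 6, Lhb on 2 vehicle and 3 TCDD arrays and Prl on 2 vehicle arrays and 1 TCDD array. Vehicle 1 stood apart from the rest. It lay at -29.4 on the first principal component, which took 41.1% of the variance, while the other arrays lay between -1.34 and 17.4.

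Marker genes of brain regions differed between the arrays. Vehicle 1 was high in genes of the striatum and cortex and low in genes of the tuberal hypothalamus, the region of the arcuate and ventromedial nuclei. It held the highest value of the 6 arrays for 16 of 19 striatal markers (84.2%, against 22.1% of all tested probes) and for 7 of 10 markers of cortex, hippocampus and amygdala. It held the lowest value for 15 of 18 tuberal markers (83.3%, against 26.4% of all tested probes). Adora2a, the adenosine receptor of striatal output neurons, was at 11.43 on vehicle 1, at 8.81 and 7.87 on vehicle 2 and 3, and at 8.07, 8.26 and 7.73 on TCDD 1 to 3. Drd1, the D1 dopamine receptor gene, was at 8.39 on vehicle 1 and between 6.14 and 6.58 on the other arrays. Itpka, a kinase of forebrain dendritic spines, was at 9.97 on vehicle 1 and between 6.72 and 7.35 elsewhere. All 3 genes thus singled out 1 control sample rather than a treatment group. In the opposite direction, Agrp, the appetite-raising peptide of the arcuate nucleus, was at 7.54 on vehicle 1 and between 8.40 and 9.05 elsewhere. Pomc, the precursor of the appetite-lowering melanocortins, was at 11.21 on vehicle 1 and between 11.72 and 12.47 elsewhere.

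The median differences of the striatal, cortical and tuberal lists between the groups depended largely on vehicle 1. Summed normalized intensity of the striatal list ran from 16003 to 27366 in the vehicle arrays and from 14070 to 15448 in the TCDD arrays. Of its 19 tested markers, 14 were lower with TCDD, against 49.4% of all tested probes, with a median difference of -0.25 that became -0.09 without vehicle 1. In the cortical list, where 7 markers including Neurod6, Neurod2 and Slc17a7 were below detection, 9 of 10 were lower with a median of -0.33, or -0.03 without vehicle 1. The cortical sum ran from 10225 to 21434 and from 9082 to 9994. On vehicle 2 and 3 the striatal sums (16542 and 16003) and cortical sums (11781 and 10225) still lay above those of every TCDD array. In the tuberal list 16 of 18 were higher with a median of 0.15, and without vehicle 1 the count was 4 of 18, where 49.3% of all tested probes were higher, and the median -0.08, with sums of 27894 to 43206 and 37519 to 46463. Samples of whole tissue cannot tell fewer cells of a type from less RNA per cell.

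Thalamic genes varied within the TCDD group. TCDD 1 and TCDD 2 were high and TCDD 3 was not. TCDD 1 was the highest of the 6 arrays for 10 of 15 markers of thalamus and habenula (66.7%, against 12.7% of all tested probes). TCDD 3 was the lowest TCDD array for 10 of 15 (66.7%, against 36.5%). Prkcd, a protein kinase C typical of thalamic relay neurons, was at 8.70, 7.05 and 8.03 on vehicle 1 to 3 and at 10.61, 9.98 and 7.79 on TCDD 1 to 3, so the groups overlapped. Gbx2, a homeobox gene of thalamic development, was at 5.55, 4.98 and 4.87 in the vehicle arrays and at 7.46, 6.48 and 4.79 with TCDD. The same order was seen in Synpo2, with 9.12, 8.57 and 6.87 on TCDD 1 to 3. The list's median difference was 0.41, with 11 of 15 higher, and it was 0.25 without vehicle 1 and 0.19 without TCDD 1. Prkcd, Gbx2, Synpo2, Itpka, Adora2a, Hdc and Six6 are named here because their values were seen to mark single arrays. At an unadjusted p under 0.05, 3 of the 15 were higher and 1 lower (26.7%, against 5.35% of all probes). Lef1 and Tcf7l2, transcription factors of the Wnt pathway that mark thalamic neurons, had mean differences of 0.72 and 1.01. That of Slc17a6, the vesicular glutamate transporter of subcortical neurons, was 0.45. Every TCDD array lay above the vehicle arrays for these genes, but TCDD 3 only narrowly. It was at 5.72 for Lef1 and 5.72 for Tcf7l2, against highest vehicle values of 5.61 and 5.64. Without TCDD 1 the Lef1 difference was 0.47, and without vehicle 1 that of Slc17a6 was 0.27. The lower member was Tac1, the substance P precursor, which is also a neuropeptide gene of the hypothalamus (-0.44). Lef1 and Tcf7l2 were detected on 2 of the 3 vehicle arrays. The thalamic sum ran from 10309 to 13106 in the vehicle arrays and from 13213 to 16861 in the TCDD arrays. These ranges did not overlap, but TCDD 3 and vehicle 3 lay close to each other. Such a sum weighs bright genes most, and Slc17a6 was at 13.02 on TCDD 3 and 12.94 on vehicle 3. The list's median deviation from the vehicle mean was -0.09 on TCDD 3 and 0.15 on vehicle 1. By that measure the groups overlapped.

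Markers of the meninges and of the pituitary also differed by array. TCDD 2 was the lowest of the 6 arrays for 15 of 17 markers of meninges and fibroblasts (88.2%, against 11.9% of all tested probes). Col1a2, a fibrillar collagen chain, was at 11.02, 11.07 and 11.72 in the vehicle arrays and at 11.25, 9.88 and 10.57 on TCDD 1 to 3. Ptgds, the prostaglandin D synthase of the leptomeninges, was between 14.25 and 14.70 on the other arrays and at 13.45 on TCDD 2. The list was lower for 16 of 17 members with a median of -0.37, and without TCDD 2 the median was -0.11. Its sums were 36127 to 47205 and 18863 to 46064, and Aldh1a2 was below detection. Tshb and Pitx1, pituitary genes that are also expressed in the pars tuberalis around the stalk, were lowest on TCDD 2. Tshb, the beta subunit of thyrotropin, was at 9.08, 11.53 and 11.47 in the vehicle arrays and at 10.75, 8.31 and 12.94 with TCDD, and the range within each group was far wider than the difference of the means (-0.03). Prl was highest on vehicle 3, at 8.36. Of the 5 tested pituitary markers 4 were lower, with a median of -0.13 that was 0.34 without vehicle 2, and sums of 3158 to 8756 and 5246 to 13940. The plot of region and cell markers shows these arrays beside each other.

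**Figure D1:**
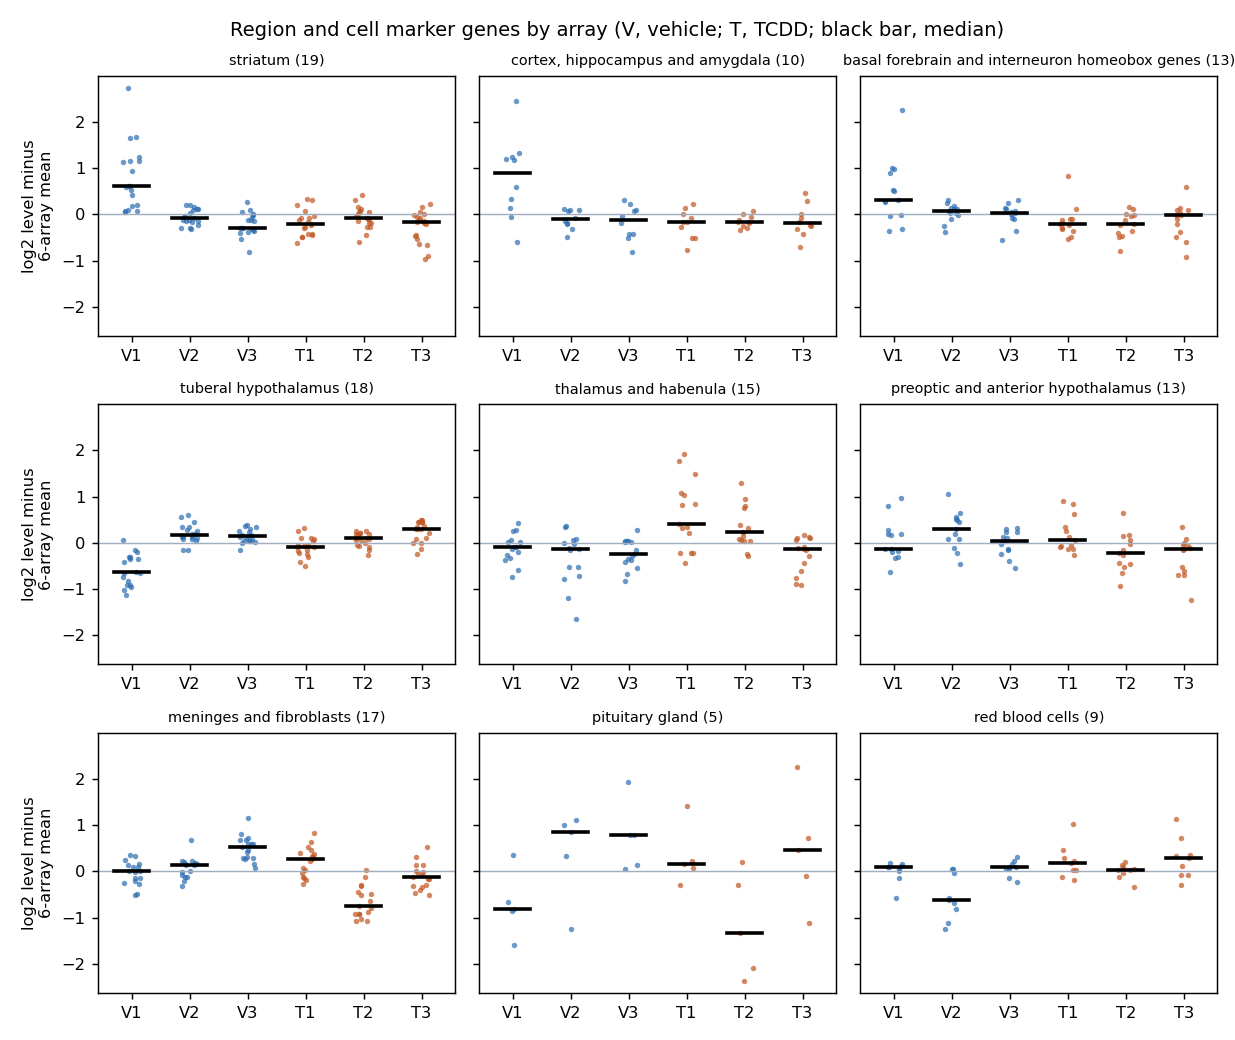
Level of each tested marker gene on each hypothalamus array, as log2 intensity minus that gene's mean over the 6 arrays (V, vehicle; T, TCDD; points, genes; black bars, medians; number of genes in brackets). Striatal and cortical genes were high and tuberal genes low on vehicle 1, thalamic genes were high on TCDD 1 and TCDD 2, and meningeal genes were low on TCDD 2.

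Against that background, few genes separated the groups by more than the spread between arrays. Of 11095 probes tested with limma, 1 had an adjusted p under 0.05 (0.00901%), and it was lower with TCDD. At an unadjusted p under 0.05 there were 594 probes (5.35%), of which 299 (2.69%) were higher and 295 (2.66%) lower with TCDD. With a difference of at least 1.5-fold as well there were 81 (0.73%), of which 29 (0.261%) were higher and 52 (0.469%) lower. The groups did not overlap for 1208 probes (10.9%), 576 higher (5.19%) and 632 lower (5.7%). If nothing differed, a share of 0.05 would be expected at an unadjusted p under 0.05. A share of 0.1 would be expected without overlap, the smallest p of an exact permutation test of 3 against 3 arrays. Both counts lay close to these shares, so neither is a count of changed probes. Higher at any size were 5619 probes (50.6%). With median scaling instead of quantile normalization, the median of all tested probes moved to 0.05 and 73.1% of the 640 probes at an unadjusted p under 0.05 were higher. Leaving out vehicle 3 gave 1027 such probes, and leaving out 1 of the other arrays gave 415 to 550.

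**Figure D2:**
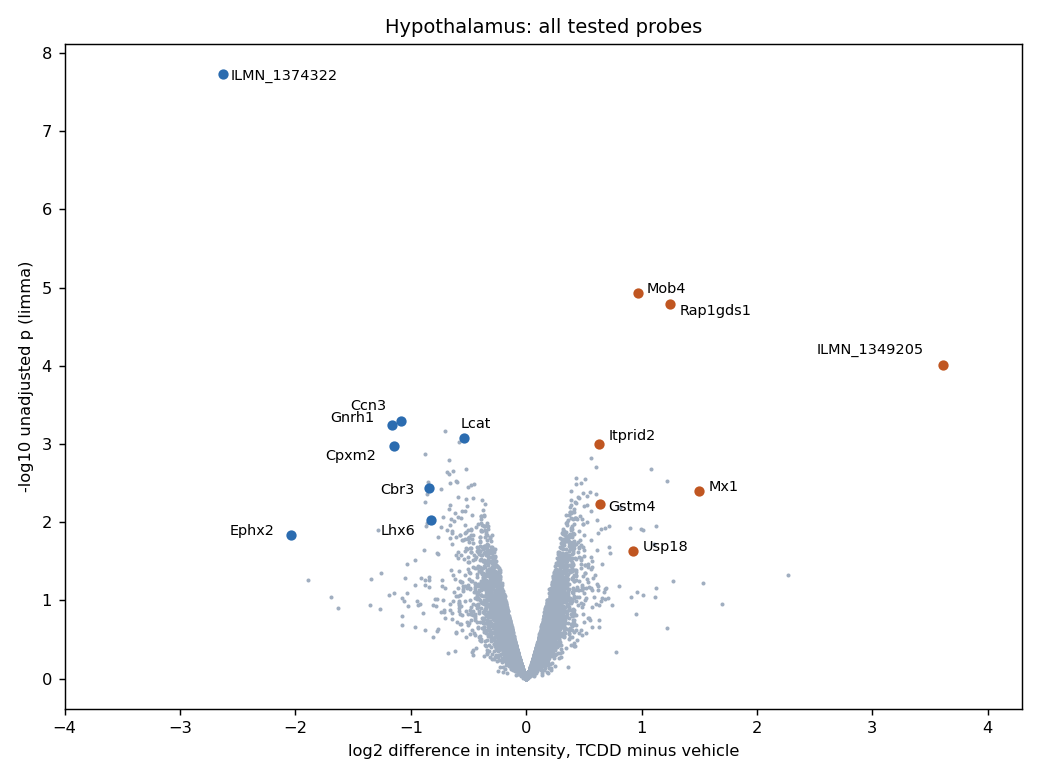
Log2 difference in intensity (TCDD minus vehicle, x axis) against -log10 of limma's unadjusted p (y axis) for the 11095 tested probes. ILMN_1374322 was the probe with an adjusted p under 0.05, Mob4 and Rap1gds1 followed on the higher side, and Gnrh1, Ccn3 and Cpxm2 led the named genes on the lower side.

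The probe that passed, ILMN_1374322, has no gene name here. It read 8.79, 8.71 and 8.61 in the vehicle arrays and 6.09, 6.23 and 5.92 in the TCDD arrays. It fell by 2.62 (SE 0.12, 6.17-fold, adjusted p = 0.000207), but with all 12 arrays of the series fitted together its adjusted p was 0.0778. The probe of largest difference, ILMN_1349205, also unnamed here and singled out for that size, read 6.17, 6.38 and 6.56 with vehicle and 10.68, 10.69 and 8.59 with TCDD. Its difference was 3.62 (SE 0.51, adjusted p = 0.27). Without TCDD 3 it was 4.31 with an adjusted p of 0.000151, which passed.

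Mob4 and Rap1gds1 came closest to the threshold among named genes. Mob4, a scaffold protein of the striatin phosphatase and kinase complex, was at 9.85, 9.82 and 9.86 in the vehicle arrays and at 10.91, 10.76 and 10.75 in the TCDD arrays. Every TCDD array lay above every vehicle array by more than the range within either group, with a difference of 0.96 (SE 0.10, 1.95-fold, 95% interval 0.732 to 1.20, adjusted p = 0.0595). Rap1gds1, a chaperone and exchange factor of small GTPases, was at 5.23, 4.94 and 5.06 with vehicle and at 6.43, 6.10 and 6.45 with TCDD. It was detected on 0 of 3 vehicle arrays and on 3 of 3 TCDD arrays, so the difference is a bound of at least 2.04-fold (adjusted p = 0.0595). Leaving out 1 array gave differences of 0.91 to 0.99 for Mob4. Of 22 tested genes in a list of 14-3-3 proteins, MOB proteins and small GTPase regulators, 4 were higher at an unadjusted p under 0.05 (18.2%, against 2.69% of all probes) and 0 lower. The others were Ywhag, the gamma 14-3-3 adaptor protein (0.52), and Rhoa, the GTPase of stress fibres (0.28). In 6 of the 22 the TCDD arrays lay above the vehicle arrays, as in 5.19% of all probes, among them the 14-3-3 genes Ywhae (13.11 to 13.29 against 13.29 to 13.52) and Ywhab (13.14 to 13.25 against 13.34 to 13.49). The list's median was 0.03, and 11 of 22 were higher. The list was chosen with earlier results of these data known, and Mob4, Rap1gds1 and Ywhag were also named for their fold. The share of 18.2% is therefore no separate evidence.

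Gnrh1, which encodes GnRH, was the named gene with the largest difference on the lower side at an unadjusted p under 0.01. It was at 7.57, 7.42 and 7.10 in the vehicle arrays and at 6.64, 5.86 and 6.10 in the TCDD arrays. The groups did not overlap, and the means of 7.37 ± 0.24 and 6.20 ± 0.40 (SD, n = 3 each) differed by 2.24-fold. The difference of -1.17 (SE 0.21, 95% interval -1.66 to -0.676) had an adjusted p of 0.883 in limma. Leaving out 1 array gave -1.38 to -0.998. Gnrh1 was highest on vehicle 1, as were most basal forebrain markers, and lowest on TCDD 2, as were most meningeal markers.

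Neighbouring genes of the reproductive network gave no comparable difference. Of 11 tested genes of GnRH neurons and their regulators, 8 were higher and 3 lower. Gnrh1 was the 1 member at an unadjusted p under 0.05 (9.09%, against 5.35% of all probes). Kiss1, the peptide that activates GnRH neurons, was near detection (2 of 3 arrays in each group) at 5.18, 5.67 and 5.41 with vehicle and 5.16, 5.60 and 5.59 with TCDD, a difference of 0.03 (95% interval -0.366 to 0.427). Its receptor gene Kiss1r was highest on vehicle 2, at 8.38, and between 7.60 and 7.91 elsewhere. Npvf, the gonadotropin-inhibitory peptide, was at 6.39 on vehicle 1 and between 7.18 and 8.25 elsewhere, and its difference of 0.41 was -0.03 without vehicle 1. Tac3, the neurokinin B gene, differed by 0.05. Among 9 tested genes of sex steroid receptors and synthesis, 5 were higher and 0 passed an unadjusted p under 0.05. Cyp19a1, the aromatase that makes oestradiol in the male brain, was at 5.20, 5.12 and 5.49 with vehicle (detected on 1 of 3) and at 5.40, 5.32 and 5.51 with TCDD. The probes of Esr1 and Pgr were detected on no array.

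Genes of the anterior and preoptic hypothalamus were lower for 9 of 13 tested markers, with a median of -0.15, or -0.28 without vehicle 1 and -0.08 without vehicle 2. Their summed intensity was 23272 to 38119 in the vehicle arrays and 17004 to 27074 in the TCDD arrays, and Prok2, Syt10 and Sim1 were below detection. Vehicle 2 held the highest value for 7 of the 13 (53.8%, against 16.8% of all tested probes). The list holds Gnrh1, Oxt and Avp, so its counts, median and sums are not independent of the results for those genes. Gnrh1 was its 1 member at an unadjusted p under 0.05 (7.69%, against 5.35% of all probes). Vax1, a homeobox gene needed for GnRH expression in mice, was at 6.72, 7.03 and 6.38 with vehicle and at 6.26, 6.29 and 6.44 with TCDD (-0.38). Six6, a homeobox gene needed for the maturation of GnRH neurons in mice, differed by 0.04. The part of these marker levels and of those of the basal forebrain and meninges in the Gnrh1 result was not tested.

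All 4 tested genes of the oxytocin and vasopressin system had lower means with TCDD, and 1 was lower at an unadjusted p under 0.05 (25%, against 2.66% of all probes). That gene was Pou3f2, a POU factor required for the oxytocin, vasopressin and CRH neurons of mice. It was at 8.43, 8.73 and 8.26 with vehicle and at 7.73, 8.17 and 7.92 with TCDD, without overlap, a difference of -0.54 (SE 0.16, adjusted p = 0.883). Oxt, the oxytocin gene, was at 12.91, 13.78 and 12.84 with vehicle and at 13.07, 12.26 and 11.48 with TCDD. TCDD 1 lay among the vehicle arrays, and the difference of -0.91 (SE 0.40, adjusted p = 0.883) ran from -1.31 without TCDD 1 to -0.51 without TCDD 3. Avp, the vasopressin gene, was at 13.47, 14.16 and 13.84 with vehicle and at 13.73, 12.94 and 13.46 with TCDD, a difference of -0.45 with overlapping groups that was -0.23 without TCDD 2 and -0.63 without TCDD 1. The receptor gene Avpr1a differed by -0.02, and Oxtr was below the detection filter. Vehicle 2 held the highest Oxt, Avp and Pou3f2 of the 6 arrays, as it did for Vax1 and Kiss1r.

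**Figure D3:**
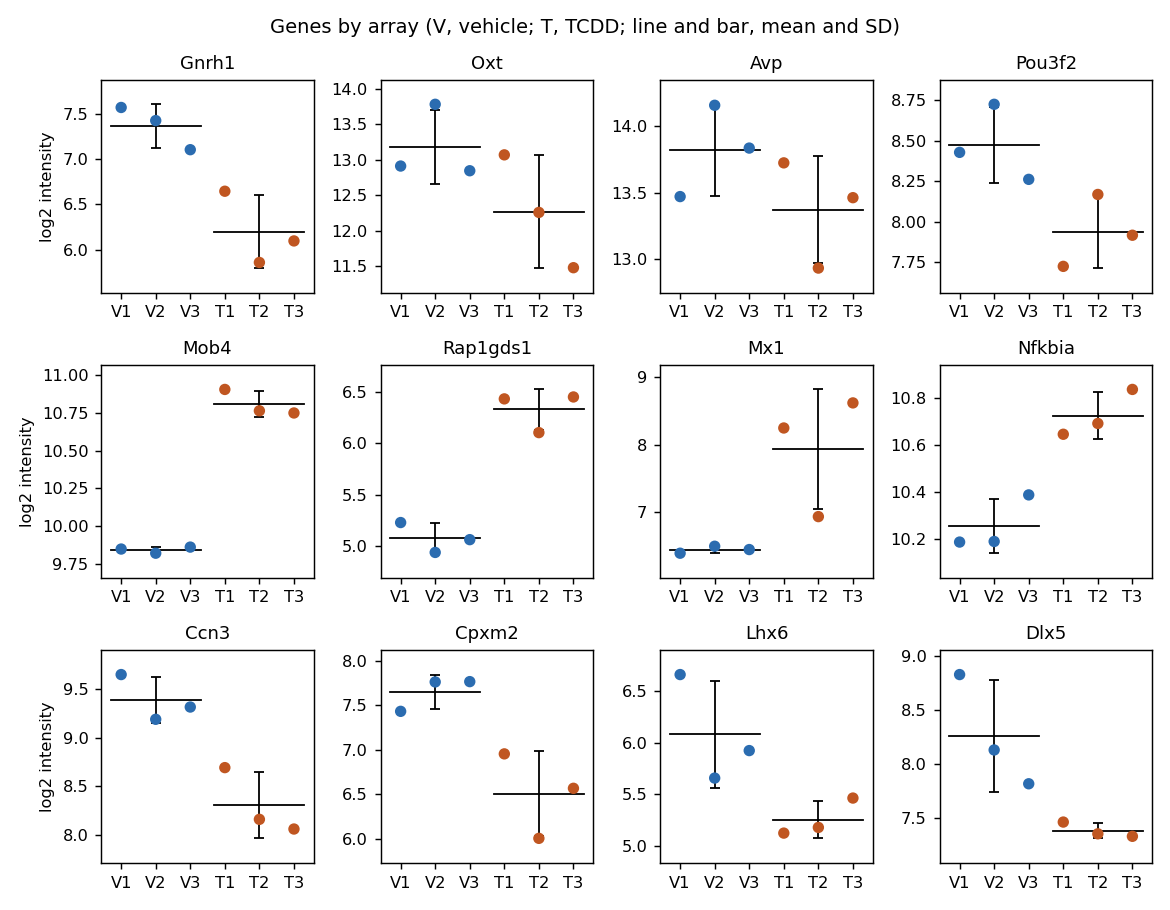
Log2 intensity of 12 genes on each array (V, vehicle, blue; T, TCDD, orange; horizontal line, group mean; bar, SD, n = 3). Gnrh1, Pou3f2, Ccn3, Cpxm2, Lhx6 and Dlx5 were lower and Mob4, Rap1gds1, Mx1 and Nfkbia higher on every TCDD array, while Oxt and Avp overlapped between groups.

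Homeobox genes of the basal forebrain and of its inhibitory neurons were lower for 9 of 13 tested markers, with a median of -0.26. At an unadjusted p under 0.05, 4 were lower (30.8%, against 2.66% of all probes) and 0 higher. Dlx5 and Lhx6 were among these and were also named for their fold, so this share is no separate evidence. Dlx5, which with its relatives directs forebrain neurons to become GABAergic, was at 8.83, 8.13 and 7.82 with vehicle and at 7.46, 7.35 and 7.33 with TCDD. Lhx6, a LIM homeobox gene of interneurons from the medial ganglionic eminence, was at 6.66, 5.66 and 5.92 with vehicle and at 5.12, 5.18 and 5.46 with TCDD, detected on 1 of 3 TCDD arrays. Both were highest on vehicle 1. Their differences of -0.88 and -0.82 became -0.59 and -0.54 without that array. The other 2 were Dlx1 (-0.34, or -0.23 without TCDD 2) and Gad2, the GABA-synthesising enzyme (-0.37, or -0.20 without vehicle 1). Meis2, a homeobox gene abundant in striatal neurons, was at 8.68 on vehicle 1 and between 5.50 and 6.53 elsewhere, and its difference of -1.34 was -0.55 without vehicle 1. The list's sum was 7838 to 10116 in the vehicle arrays and 6717 to 7824 in the TCDD arrays, and its median without vehicle 1 was -0.15. Slc5a7, the choline transporter of cholinergic neurons, was below detection, and Slc18a3, their vesicular transporter, was at 7.03, 6.21 and 6.05 with vehicle and 5.64, 6.15 and 5.76 with TCDD.

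Further genes were lower on every TCDD array. Ccn3, a matricellular protein of the CCN family, was at 9.65, 9.19 and 9.32 with vehicle and at 8.69, 8.16 and 8.06 with TCDD (-1.08, 2.12-fold, adjusted p = 0.883). Cpxm2, a secreted protein of the carboxypeptidase family, was at 7.43, 7.76 and 7.77 with vehicle and at 6.95, 6.01 and 6.57 with TCDD (-1.14). Igfbp6, which binds the growth factor IGF2, was at 7.53, 7.37 and 7.78 with vehicle and at 7.00, 6.44 and 7.02 with TCDD (-0.74). Cpxm2 and Igfbp6 were in the list of meningeal markers and, like it, were lowest on TCDD 2, without which their differences were -0.89 and -0.55. Nmb, the peptide neuromedin B, was 1.57-fold lower, and Tacr1, the substance P receptor, was 1.42-fold lower. Lcat, the enzyme that esterifies cholesterol in lipoproteins and is made by astrocytes in brain, had close replicates at 10.26, 10.34 and 10.31 with vehicle and at 9.87, 9.67 and 9.77 with TCDD (-0.54). Sema3b, a secreted axon guidance protein, was at 7.56 to 7.74 with vehicle and at 7.04 to 7.16 with TCDD (-0.54). The remaining genes of this kind were Armc8, a subunit of the CTLH ubiquitin ligase (-0.67), Fundc2, a mitochondrial outer membrane protein (-0.61), Tuba8, an alpha-tubulin (-0.55), and Sgcz, a sarcoglycan (-0.52). A second probe of Armc8 was not detected. All had an adjusted p of 0.883.

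On the higher side, Itprid2, a protein that binds inositol trisphosphate receptors, was at 6.69, 6.60 and 6.53 with vehicle and at 7.29, 7.39 and 7.03 with TCDD (0.63, 1.55-fold, adjusted p = 0.883). Nfkbia, the NF-kappaB inhibitor that is itself a target of NF-kappaB, was at 10.19, 10.19 and 10.39 with vehicle and at 10.65, 10.69 and 10.84 with TCDD (0.47). Zfp692, a zinc finger protein, was at 6.45 to 6.75 with vehicle and at 7.15 to 7.26 with TCDD (0.56). These 3 genes kept a difference of at least 0.41 when any 1 array was left out. Mmadhc, which directs cobalamin to its enzymes, was at 10.24, 9.51 and 9.68 with vehicle and at 10.43, 10.40 and 10.45 with TCDD (0.62). Ctnna2, the neuronal alpha-catenin, was higher by 0.56 on the probe of highest signal, and its second probe was not detected. Ina, the neurofilament protein alpha-internexin, was higher by 0.47, Hmgn3, a nucleosome-binding protein, by 0.46, C2cd5 by 0.49 and Arhgap22, an inhibitor of Rac-type GTPases, by 0.50. Xylb, xylulokinase, was detected on 0 of 3 vehicle arrays and was at least 1.33-fold higher. In all, among the 8141 tested probes with a name, 30 genes were higher and 21 lower at an unadjusted p under 0.01 without overlap. Up to 15 per direction are named here.

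Interferon-induced genes were higher for 17 of 19 tested members, against 50.6% of all probes, with a median difference of 0.35. At an unadjusted p under 0.05, 5 were higher (26.3%, against 2.69% of all probes in that direction) and 0 lower. These genes are switched on by interferon, many of them through the interferon-stimulated response element (ISRE). Mx1, an antiviral GTPase, was at 6.38, 6.48 and 6.43 with vehicle and at 8.25, 6.92 and 8.62 with TCDD (2.83-fold, SE 0.38 on the log2 scale, adjusted p = 0.883). Its TCDD arrays spread far more than its vehicle arrays, with TCDD 2 close to the vehicle level. Mx1 was also named for its fold, so the share of 26.3% is no separate evidence. Usp18, which removes ISG15 from proteins and damps interferon signalling, was at 5.25, 5.30 and 5.31 with vehicle and at 6.14, 5.48 and 7.04 with TCDD. Ifih1, the sensor of double-stranded RNA also called MDA5, was at 5.23, 5.46 and 5.33 with vehicle and at 5.82, 5.58 and 6.33 with TCDD. Cxcl10, a chemokine that draws T cells, was at 5.56, 5.27 and 5.63 with vehicle and at 6.53, 5.55 and 6.56 with TCDD. In these 4 genes TCDD 1 and TCDD 3 were high and TCDD 2 lay nearest the vehicle arrays. Usp18, Ifih1 and Cxcl10 were each detected on 2 of 3 vehicle arrays. The fifth was Mx2 (0.53). Without TCDD 3 the differences were 0.52 for Usp18, 0.36 for Ifih1 and 0.32 for Mx2.

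That order of arrays held through the list. TCDD 3 was the highest of the 6 arrays for 15 of the 19 genes (78.9%, against 20.2% of all tested probes), and TCDD 2 was the lowest TCDD array for 16 (84.2%, against 33.6%). Irf7, the transcription factor that amplifies the response, was at 7.02, 7.69 and 7.23 with vehicle and at 7.84, 7.23 and 8.67 with TCDD. Rtp4, an interferon-induced chaperone of receptors, was at 8.20, 8.59 and 8.52 with vehicle and at 9.08, 8.05 and 10.07 with TCDD, so TCDD 2 lay below all vehicle arrays. The list's median was 0.14 without TCDD 3, 0.65 without TCDD 2 and 0.33 without vehicle 1. Mx1 passed the threshold without TCDD 2, at 2.01 (adjusted p = 0.0143). Summed intensity of the list was 4806 to 6228 in the vehicle arrays and 5055 to 9533 in the TCDD arrays. A further 10 listed genes with probes, Ifit1, Isg15 and Oas1a among them, were below the detection filter. Genes of the major histocompatibility complex and antigen presentation were higher for 13 of 17, with a median of 0.11 that was 0.03 without vehicle 1. Their 1 member at an unadjusted p under 0.05 (5.88%, against 5.35% of all probes) was RT1-N3, a class I gene (0.50, detected on 1 of 3 vehicle arrays). Its signal can be shared with other class I genes. Markers of microglia and leukocytes, which carry part of this response, were lower for 9 of 14, with a median of -0.08 and sums of 15585 to 19568 and 14682 to 16411, and Ptprc was below detection.

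**Figure D4:**
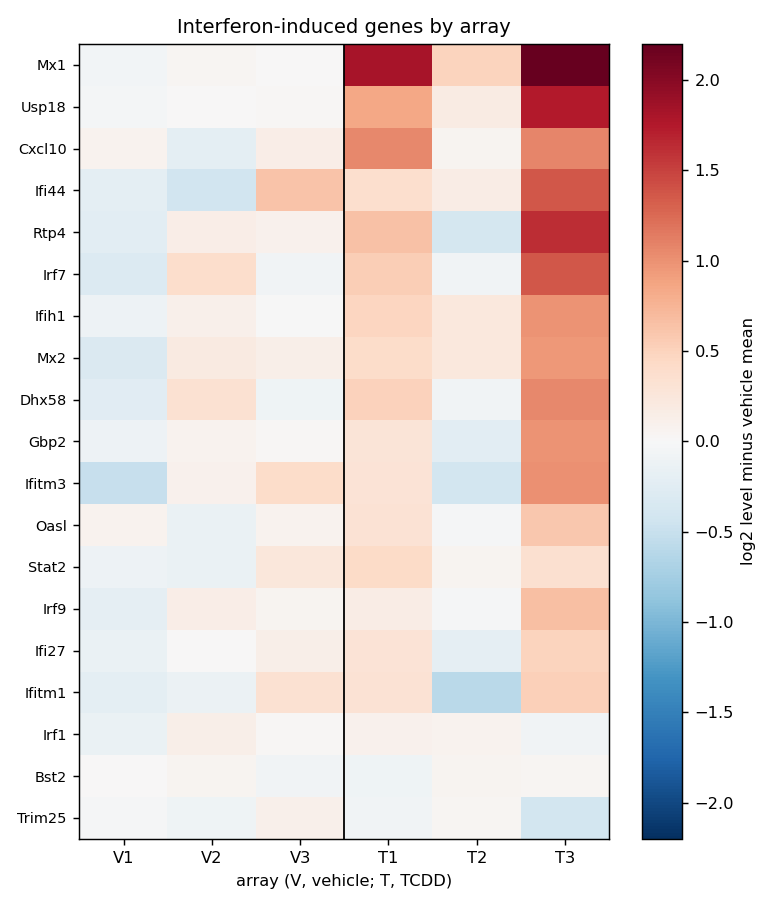
Level of the 19 tested interferon-induced genes on each array (V, vehicle; T, TCDD), as log2 intensity minus the mean of the 3 vehicle arrays, ordered by the difference of the group means. TCDD 3 was highest for 15 of the 19 genes, TCDD 1 was raised for the genes at the top, and TCDD 2 was the lowest TCDD array for 16.

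The promoters of 4 of these genes are shown because the ISRE is the element known for this response, 3 of them with a match and Mx1, the member with the largest difference, without one. RefSeq (GRCr8) held a window for 14 of the 19 genes, and the 250 bases before the gene start were searched on both strands for the ISRE core, which is GAAA, then any 2 bases, then GAAA. It was found in 8 of the 14 windows (57.1%), against 3.29% of all 27457 windows and 2.58% of the 6781 windows of tested genes. The list was made of genes known to respond to interferon, so this share describes the list. It uses no difference between the groups and is no evidence on TCDD. The sequences run 5′ to 3′ on the gene's own strand, with a match in capitals. Ifih1 is from chr3:67683969-67684218 (minus strand), Cxcl10 from chr14:15988816-15989065 (plus strand), Irf7 from chr1:205800024-205800273 (minus strand) and Mx1 from chr11:50294607-50294856 (minus strand).
Ifih1: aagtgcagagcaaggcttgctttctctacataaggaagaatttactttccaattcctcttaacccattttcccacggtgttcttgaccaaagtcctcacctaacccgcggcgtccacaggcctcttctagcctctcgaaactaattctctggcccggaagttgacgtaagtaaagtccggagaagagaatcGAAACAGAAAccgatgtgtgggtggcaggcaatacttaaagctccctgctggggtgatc
Cxcl10: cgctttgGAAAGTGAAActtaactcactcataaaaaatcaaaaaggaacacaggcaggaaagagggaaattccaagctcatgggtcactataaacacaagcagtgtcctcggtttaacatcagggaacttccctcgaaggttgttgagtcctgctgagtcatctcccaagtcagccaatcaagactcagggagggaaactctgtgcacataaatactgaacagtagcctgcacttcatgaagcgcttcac
Irf7: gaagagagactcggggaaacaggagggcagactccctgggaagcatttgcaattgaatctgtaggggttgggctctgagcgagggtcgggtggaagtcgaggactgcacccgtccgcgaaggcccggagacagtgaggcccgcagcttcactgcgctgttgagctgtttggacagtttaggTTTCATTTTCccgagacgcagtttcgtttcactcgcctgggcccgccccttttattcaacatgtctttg
Mx1: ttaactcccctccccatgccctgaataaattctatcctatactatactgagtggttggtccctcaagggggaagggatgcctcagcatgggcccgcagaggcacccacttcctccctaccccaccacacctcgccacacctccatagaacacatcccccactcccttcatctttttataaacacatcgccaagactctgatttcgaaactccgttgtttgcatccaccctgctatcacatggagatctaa
The match starts 59 bases before the gene start in Ifih1, 243 before it in Cxcl10 and 69 before it in Irf7, where it reads on the opposite strand. In the Mx1 window these letters were not found. Bst2, whose window held 2 matches, had a mean of 6.23 in each group.

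Genes of the AhR and Nrf2 response to foreign compounds split in direction, with 8 of 17 tested members higher, 9 lower and a median of -0.01. At an unadjusted p under 0.05, 2 were higher and 2 lower (23.5%, against 5.35% of all probes). Cbr3 and Gstm4 were among these and were also named for their fold, so this share is no separate evidence. Cbr1 and Cbr3, neighbouring genes for carbonyl reductases, went opposite ways. Cbr1 was at 9.37, 9.63 and 9.52 with vehicle and at 9.76, 10.08 and 10.00 with TCDD (0.44, SE 0.13). Cbr3 was at 7.33, 6.73 and 6.55 with vehicle and at 5.85, 6.24 and 6.00 with TCDD (-0.84, SE 0.21, or -0.61 without vehicle 1). Neither pair of groups overlapped, and the adjusted p was 0.883 for each. Gstm4, a glutathione transferase whose probe may share signal with related family members, was at 7.51, 7.80 and 7.19 with vehicle and at 7.96, 8.15 and 8.30 with TCDD (0.64). Ephx2, the soluble epoxide hydrolase, was at 9.81, 9.17 and 9.00 with vehicle and at 6.30, 9.07 and 6.50 with TCDD. TCDD 1 and TCDD 3 lay far below the vehicle arrays and TCDD 2 lay among them, so the difference of -2.04 (SE 0.66, adjusted p = 0.883) was -2.93 without TCDD 2 (adjusted p = 0.0195), which passed.

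Classical AhR targets showed no group difference beyond the spread. The probes of Cyp1a1 and Ahrr were detected on no array. Cyp1b1 was at 5.45, 5.41 and 6.10 with vehicle and at 6.79, 5.36 and 6.30 with TCDD, with overlapping groups (0.50, 95% interval -0.303 to 1.30). Nqo1, a quinone reductase, differed by -0.06 (95% interval -0.352 to 0.233), and Ahr itself, near detection, by -0.11. The dioxin response element core GCGTG, searched on both strands, was in 10 of the 24 windows that RefSeq held for the genes named for their fold (41.7%), in 7 of 15 windows of this list (46.7%) and in 44.3% of windows of tested genes.

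Feeding, growth and stress peptides were as often higher as lower, 15 and 14 of 29 tested. Nmb and Tac1 (-0.44) were the 2 members at an unadjusted p under 0.05 (6.9%, against 5.35% of all probes). Pmch, the melanin-concentrating hormone of the lateral hypothalamus, had similar values on the 6 arrays, at 14.37, 14.81 and 14.81 with vehicle and at 14.75, 14.65 and 14.93 with TCDD. Hcrt, the arousal peptide orexin, was at 10.70 to 11.92 with vehicle and at 10.94 to 11.80 with TCDD (-0.09). Npy, an appetite-raising peptide, differed by -0.08, Sst, somatostatin, by -0.15 and Trh, thyrotropin-releasing hormone, by -0.15. Crh, corticotropin-releasing hormone, was at 8.58, 8.67 and 7.36 with vehicle and at 7.98, 7.87 and 7.26 with TCDD (-0.50), so vehicle 3 lay among the TCDD arrays. Agrp (0.38), Pomc (0.23) and Ghrh, growth hormone-releasing hormone (0.57), were lowest on vehicle 1, and without it their differences were -0.04, -0.12 and 0.15. The list's median was 0.02, or -0.09 without vehicle 1. Of 20 tested neuropeptide receptors, 11 were higher, and Tacr1 was the 1 member at an unadjusted p under 0.05 (5%, against 5.35% of all probes). Mc4r, the melanocortin receptor that restrains feeding, had a difference of -0.31, and Lepr and Npy2r were below the detection filter.

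Among dopamine genes, Slc6a3 and Th varied by array more than by treatment. Slc6a3, the dopamine transporter of midbrain neurons, was at 10.35, 9.71 and 7.34 with vehicle and at 6.04, 7.07 and 9.39 with TCDD. The range within each group exceeded the difference of -1.63 (SE 0.95). Th, the rate-limiting enzyme of dopamine synthesis, was at 10.23, 10.42 and 9.62 with vehicle and at 9.52, 9.42 and 10.07 with TCDD (-0.42). Of 10 tested genes of dopamine and sexual behaviour, 5 were higher and 0 passed an unadjusted p under 0.05. Posterior and mammillary markers were higher for 4 of 5, with Hdc, the enzyme that makes histamine, at 8.63 on vehicle 1 and between 9.71 and 10.33 elsewhere. Their median of 0.26 became -0.03 without vehicle 1.

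Genes of the IGF system and the CCN family were lower for 10 of 13, with a median of -0.32 that was -0.07 without vehicle 1. Ccn3, Igfbp6 and Igfbp3, the main carrier of circulating IGF (-0.32), were the 3 members lower at an unadjusted p under 0.05 (23.1%, against 2.66% of all probes). Ccn3 and Igfbp6 were also named for their fold, so this share is no separate evidence. Ccn1, an immediate early matricellular gene, was at 8.61 on vehicle 1, and its difference of -1.05 became -0.43 without that array. Igf2, a growth factor of the meninges, was at 12.67, 12.96 and 13.48 with vehicle and at 13.45, 11.90 and 12.41 with TCDD. Immediate early genes, which report recent neuronal firing, were lower for 10 of 17, with a median of -0.08, or 0.04 without vehicle 1. Egr1 (-0.51) and Fos (-0.27) were lower and the nuclear receptor gene Nr4a1 higher (0.37) at an unadjusted p under 0.05 (17.6%, against 5.35% of all probes). Egr1 was at 10.38, 9.58 and 9.88 with vehicle and at 9.40, 9.34 and 9.58 with TCDD, so the groups met, and its difference was -0.29 without vehicle 1. Nr4a1 was detected on 1 of 3 vehicle arrays. Arc, which regulates synaptic AMPA receptors, was at 8.55 on vehicle 1 and between 6.21 and 6.87 elsewhere.

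Among genes that respond to glucocorticoids, 2 of 11 were lower at an unadjusted p under 0.05 (18.2%, against 2.66% of all probes) and 0 higher. Mt1, a metallothionein, was at 10.78, 10.89 and 11.08 with vehicle and at 10.54, 10.15 and 10.67 with TCDD (-0.46). Fkbp5, a co-chaperone that restrains the glucocorticoid receptor, was at 10.00, 9.60 and 9.58 with vehicle and at 9.40, 9.34 and 9.25 with TCDD (-0.40, or -0.26 without vehicle 1). Neither pair of groups overlapped. Ddit4 (0.25) and Tsc22d3 (0.18), both induced by glucocorticoids, had higher values on every TCDD array but missed that p. Of 12 clock genes, 7 were higher. The repressor Cry1 was lower (-0.29) and the repressor Bhlhe40 higher (0.30) at an unadjusted p under 0.05 (16.7%, against 5.35% of all probes). Of 15 genes of the thyroid hormone pathway, 14 had lower means (median -0.15) and 0 passed an unadjusted p under 0.05. Without vehicle 1, 4 of 15 were higher and the median was -0.08.

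Neuronal marker genes were higher for 12 of 17 tested members, with a median of 0.11, or 0.15 without vehicle 1 and 0.0096 without vehicle 2. Tubb3, the neuronal beta-tubulin, was at 10.63, 10.74 and 10.70 with vehicle and at 11.00, 11.07 and 11.02 with TCDD (0.34). Syp, the synaptic vesicle protein synaptophysin, was at 12.57, 12.57 and 12.61 with vehicle and at 13.01, 12.77 and 12.84 with TCDD (0.29). Thy1, a surface protein of neurons, was higher by 0.25, and Syn1, synapsin I, was lower, at 6.32, 6.21 and 6.26 with vehicle and at 6.07, 6.00 and 6.04 with TCDD (-0.23). These 4 members (23.5%, against 5.35% of all probes) had an unadjusted p under 0.05, 3 of them on the higher side. Summed intensity was 59541 to 64858 in the vehicle arrays and 65617 to 71298 in the TCDD arrays, without overlap.

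Glia showed smaller medians. Astrocyte markers were higher for 9 of 15 with 0 at an unadjusted p under 0.05 (median 0.02, sums 113437 to 124966 and 118558 to 126069). Markers of oligodendrocytes and myelin were lower for 15 of 21 (median -0.06), but 15 of 21 were higher without vehicle 1 (median 0.11). Opalin, a protein of mature oligodendrocytes, was higher by 0.51 with overlapping groups, or by 0.31 without TCDD 1. Ependymal and tanycyte markers were higher for 9 of 15, with a median of 0.07 that was -0.13 without vehicle 1. Choroid plexus markers were lower for 6 of 8 (median -0.10), and without vehicle 1 4 of 8 were higher (median -0.03). Among the higher members was Otx2, a homeobox gene at 6.19 to 6.39 with vehicle and at 6.60 to 6.84 with TCDD (0.45). Kl and Kcne2 were below detection. Endothelial and mural markers were higher for 8 of 12, with a median of 0.12. Without vehicle 1, 10 of 10 were higher, with a median of 0.26 and 4 at an unadjusted p under 0.05. Of all 10904 probes tested in that setting, 288 were higher at that p. Only 10 of the 12 members passed the detection filter there, and Flt1, at -0.25 with all arrays, was among those lost. With all arrays the 1 member at that p (8.33%, against 5.35% of all probes) was Esam, an endothelial adhesion molecule, higher by 0.34, or by 0.22 without vehicle 3. Red blood cell genes were higher for 6 of 9, with 2 of them at an unadjusted p under 0.05 and higher (22.2%, against 2.69% of all probes). Hbb-b1, a beta-globin gene whose probe may share signal with its copies, was at 12.33, 11.35 and 12.25 with vehicle and at 13.50, 12.60 and 12.81 with TCDD (0.99). Ahsp, the chaperone of alpha-globin, was at 6.31, 6.28 and 6.74 with vehicle and at 6.92, 7.09 and 8.01 with TCDD (0.90, or 0.56 without TCDD 3). Vehicle 2 held the lowest value for 6 of the 9 (66.7%, against 15.2% of all tested probes), and without it the median of 0.24 was 0.01. The sums were 29531 to 54412 and 50815 to 65106.

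Lists of housekeeping machinery stayed close to 0. Of 60 cytosolic ribosomal protein genes 23 were higher (median -0.02), with 0 at an unadjusted p under 0.05. Oxidative phosphorylation genes were evenly split, 28 of 56 higher, with Atp5mk, a small ATP synthase subunit, at 6.19, 5.09 and 6.10 with vehicle and 6.77, 6.31 and 7.61 with TCDD (1.10), and Cox8b lower (-0.64). Atp5mk and Cox8b were the members at an unadjusted p under 0.05 (3.57%, against 5.35% of all probes). Proteasome genes were higher for 29 of 40 (median 0.06, or 0.01 without vehicle 1), and Psmc6, an ATPase of the regulatory particle detected on 0 of 3 vehicle arrays, was at least 1.26-fold higher. Of 22 heat shock and ER stress genes 15 were higher, with the unfolded protein response factor Xbp1 lower (-0.30). DNA methylation genes were evenly split, 7 of 14 higher with 0 at an unadjusted p under 0.05. Dnmt1, the maintenance methyltransferase, differed by 0.00 (95% interval -0.262 to 0.270). Dnmt3a, a de novo methyltransferase, was at 9.01, 7.95 and 8.14 with vehicle and at 7.13, 8.12 and 8.52 with TCDD, with overlapping groups. Imprinted genes were lower for 7 of 11 and phosphodiesterases for 11 of 14, with 0 at that p in either. Glutamate genes were lower for 9 of 16, GABA and glycine genes for 9 of 15 with the GABA B receptor gene Gabbr2 higher (0.40), and serotonin and acetylcholine genes for 6 of 13.

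**Figure D5:**
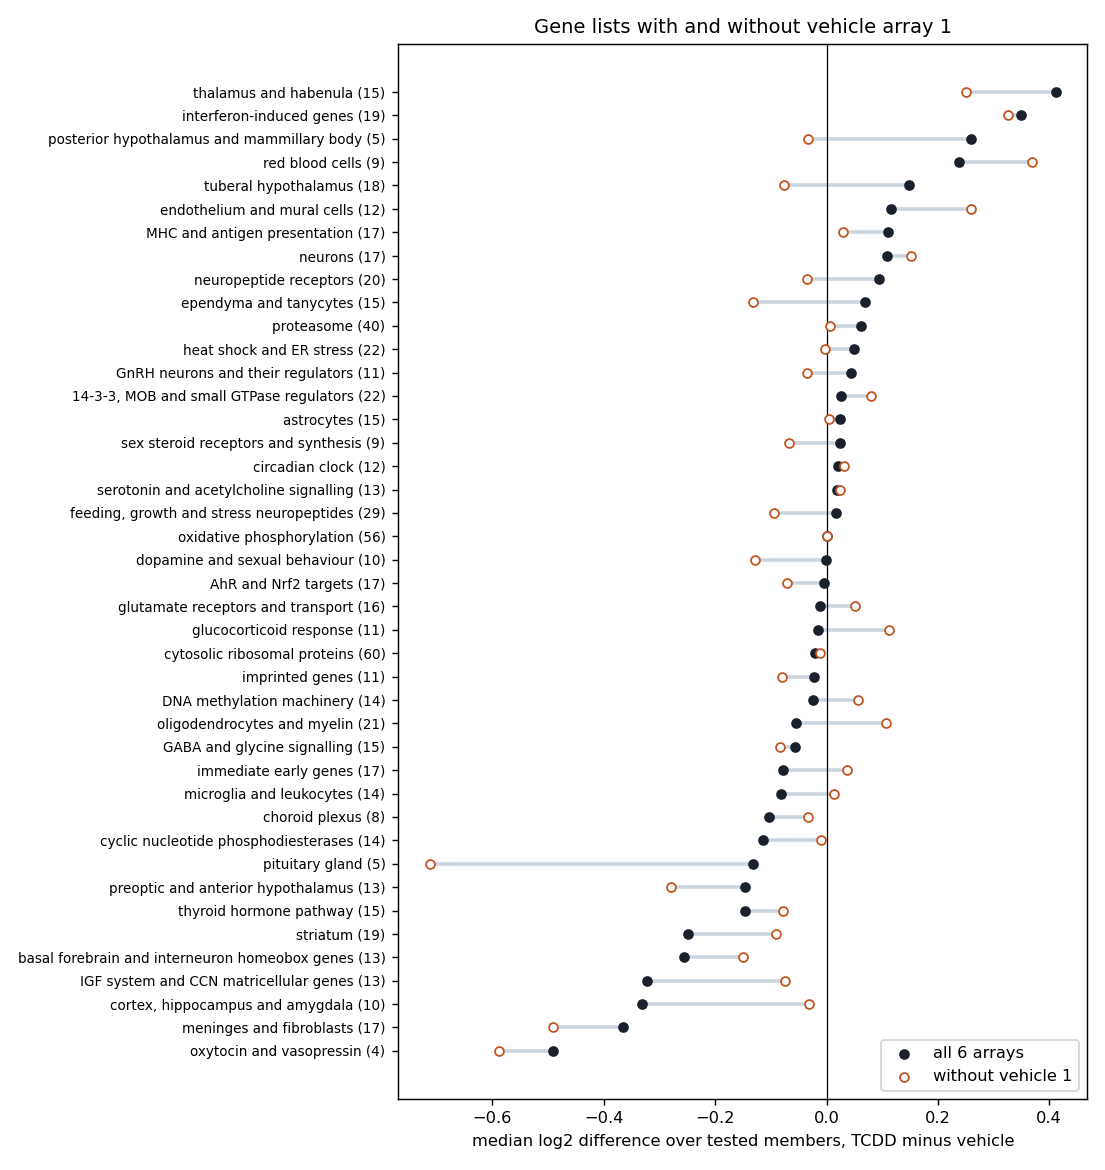
Median log2 difference (TCDD minus vehicle) over the tested members of each of the 42 gene lists, with all 6 arrays (filled) and without vehicle 1 (open); the number of tested genes is in brackets. The interferon, thalamic, red blood cell and neuronal medians stayed above 0 and the oxytocin and vasopressin, meningeal and preoptic medians below 0, while the tuberal median changed sign and the striatal and cortical medians moved toward 0.

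The TCDD effect was also set against that in the pituitary with all 12 arrays normalized together, which was the test of a difference between the tissues. Of 11910 probes in that fit, 0 had an adjusted p under 0.05 (0%) for the difference, and 738 an unadjusted p under 0.05 (6.2%). Gnrh1, at -1.14 in the hypothalamus and 0.10 in the pituitary, differed by -1.23 (SE 0.24, adjusted p = 0.573). Too few pituitary arrays detected it for a test in that tissue alone, so this is a difference from a level near background. RT1-N3 stood at 0.46 and -0.54 (difference 1.00, adjusted p = 0.573). Fos, lower in both tissues, stood at -0.26 and -1.39, a difference of 1.13 (adjusted p = 0.675). Pou3f2 stood at -0.53 and 0.15 (adjusted p = 0.717). Mmadhc was higher in both (0.63 and 0.71), with a difference between tissues of -0.08. ILMN_1374322 was lower in both (-2.58 and -1.42). Neither passed in the pituitary in this limma fit, with an adjusted p of 0.294 for Mmadhc and 0.579 for ILMN_1374322.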

How the data were processed

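RNA from the hypothalamus was measured on 6 arrays, 3 per group, grouped by the labels' tissue and maternal agent. Per the file headers, the deposited table gave each probe an intensity signal on every array, without normalization between arrays, beside the p-value of its detection. A second deposited table held intensity values normalized by the authors for each tissue on its own, per the series text. Its scale was linear, not centred and in the direction of the signals (Spearman rho of 1 with each array, medians of 169.245 to 169.276), with the method unknown, and it was used as an alternative. The sources used here do not give the scanner software or any earlier background step.

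Signals of the 6 arrays were background-corrected from the detection p-values (nec of limma 3.58.1 in R 4.3.3, offset 16), quantile normalized and log2 transformed. The offset draws folds of dim probes toward 1. Testing was limited to probes detected (detection p under 0.05) on 3 or more of the 6 arrays, and a gene was represented by its probe of highest mean. Of 22523 probes, 13793 had 1 symbol in the platform annotation and 8730 none, and 13752 were found in the RefSeq gene table used to update names (GRCr8). Of the 11095 tested, 2954 were unnamed. TCDD was compared with vehicle by lmFit and eBayes, two-sided, without a block, with Benjamini-Hochberg adjustment over all tested probes at 0.05, and the test was tried on simulated data. Arrays limit the precision to 3 values a group, and an exact permutation test could not go below p = 0.1. Where a group was detected on 0 of 3 arrays, the fold is at least the bright mean over the dim mean of, per array, the higher of the probe and the lowest detected signal. The difference between tissues is an interaction term over 12 arrays normalized together. Some title numbers occur in both tissues, and the labels do not say whether they mark the same animal.

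The comparison and the 42 gene lists were chosen with earlier results of these data known, so lists are described by counts and medians only. For the same reason, no share of a list under an unadjusted p is separate evidence. Of 1038 list entries 881 had a probe and 713 were tested, and a gene can stand in several lists. Named genes were those at adjusted p under 0.05, up to 15 per direction of largest fold at unadjusted p under 0.01 without overlap, a fixed set of hypothalamic, AhR and DNA methylation genes, and up to 4 members of smallest p per list. Other genes named with values were chosen after their values were seen. Alternatives were 12 settings and each array left out in turn. Pituitary arrays were used only in the fit of all 12 arrays.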

Additional observations from a re-analysis of the deposited data

How the results depend on the processing

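The count of probes at adjusted p under 0.05, 1 as reported, was 2 without background correction, with an offset of 50, on the authors' normalized table, with detection on all 6 arrays or with no detection filter, 3 with eBayes with trend and robust or with array weights, 0 with all 12 arrays together, and 1 to 3 when 1 array was left out. At unadjusted p under 0.05, 594 probes became 1190 with no detection filter, 946 with array weights, and 415 to 1027 with 1 array left out. With at least 1.5-fold as well, 81 became 25 without background correction, 45 with the offset of 50, 19 on the authors' table, and 86 to 228 with 1 array left out. The non-overlapping 1208 became 2386 with no detection filter and, with fewer arrays to separate, 1936 to 3084. Replicate numbers are shared between the groups, and deviations of same-numbered arrays correlated at 0.112, 0.0956 and 0.259. The other pairs ran from -0.38 to 0.251. Vehicle 3 correlated best with TCDD 3 (0.259), vehicle 1 with TCDD 2 (0.251) and vehicle 2 with TCDD 3 (0.135). In the sample titles the vehicle arrays carry other numbers than their replicate numbers. The correlations do not decide whether the numbers pair the arrays, and the main test used no pairing. A replicate block gave 1 probe at adjusted p under 0.05 and 849 at unadjusted p under 0.05.

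In 7 settings Mob4 reached adjusted p values between 0.00944 and 0.0489. Rap1gds1 reached 0.0176 with array weights and 0.045 with trend and robust.
Of the 116 genes and probes named with values and followed through these settings, 99 kept 1 sign in all of them. The sign turned with array weights for Ahr (0.0713), Kiss1 (-0.16), Pomc (-0.11), Prl (0.36), Six6 (-0.19), Tac3 (-0.11). Tshb read 0.0132 (no background correction), 0.0236 (median scaling), 0.0507 (the authors' normalized table), 0.00195 (all 12 arrays together), and Dnmt1 -0.00040 with cyclic loess. With 1 array left out, differences that turned ran from -0.0389 to 0.64 for Agrp, from -0.0529 to 0.0787 for Dnmt1, from -0.44 to 0.17 for Hcrt, from -1.61 to 0.0153 for Itpka, from -0.0913 to 0.17 for Kiss1, from -0.29 to 0.10 for Kiss1r, from -0.0346 to 0.79 for Npvf, from -0.24 to 0.0667 for Npy, from -0.17 to 0.0191 for Nqo1, from -1.37 to 0.0319 for Pitx1, from -0.0500 to 0.19 for Pmch, from -0.12 to 0.46 for Pomc, from -0.26 to 0.28 for Six6, from -0.12 to 0.17 for Tac3 and from -1.17 to 1.15 for Tshb.
The cause of these reversals was not tested. Probes close to the detection limit have only bounds, and 3 arrays per group limit every value.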
